A study of Homo sapiens with 6 samples.

Results

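Transcripts of 6 homing receptors and of the transcription factor KLF2 were measured in MOLT-4, a human cell line established from T-ALL (T-cell acute lymphoblastic leukemia). The members are the chemokine receptors CXCR4, CCR7, CCR9 and CCR4, the sphingosine-1-phosphate receptors S1PR1 and S1PR4, and KLF2. They were chosen by name, as the rows carrying these 7 gene symbols, out of 60640 gene identifiers in the tables. Earlier results of these data were known when they were chosen. PolyA RNA was sequenced from 3 libraries of wild type MOLT-4, the control line of the CRISPR knockout, and from 3 libraries labelled IK-KO, a MOLT-4 line in which IKZF1, the gene of IKAROS, had been targeted with CRISPR-Cas. Both lines were grown in RPMI with serum, and the labels name no treatment beside the edit. According to the study's methods both were bought as edited and control lines, and blots were made from more than a single knockout clone. The labels name no clone, so a change of the clone and an effect of the edit cannot be told apart. The labels also do not say that the replicates are separate cultures, so the p-values measure only the spread between these libraries, which may be technical.

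Homing receptors decide where a T cell goes. Chemokine receptors are G protein-coupled receptors that turn a gradient of a chemokine into directed movement, and each tissue offers its own ligands: CXCL12 in bone marrow and thymus for CXCR4, CCL25 in thymus and small intestine for CCR9, CCL19 and CCL21 in lymph nodes for CCR7, and CCL17 and CCL22 in skin and thymic medulla for CCR4. Sphingosine-1-phosphate (S1P), a lipid that is abundant in blood and lymph, draws T cells out of thymus and lymph nodes through S1PR1. KLF2 is a zinc finger factor that binds CACCC sequences, keeps T cells quiescent and, in mouse T cells, activates the S1pr1 gene.

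The RNA of 5 of the 7 members differed between the lines, and the members did not move in a single direction. In the libraries labelled IK-KO, CCR9, KLF2 and CXCR4 were higher, at 2.68, 1.88 and 1.20 times the wild type mean of FPKM (fragment counts scaled for transcript length and library depth). CCR4 and S1PR1 were lower, at 0.504 and 0.618 times the wild type mean. CCR7 was tested and not called, and S1PR4 was too low to be tested. A gene was called when the adjusted p of limma, fitted to log2(FPKM + 1) over all 12652 genes whose mean FPKM reached 1, was under 0.05. With 5 of 6 tested members called, 3 higher and 2 lower, the background is that 19.9% of all tested genes were called, 10.1% higher and 9.75% lower. The libraries of the groups did not overlap for any of the 6 tested members, as they did not for 39% of all tested genes. The median size of the change, whatever its sign, was 0.71 on the log2 scale over the 6 tested members and 0.18 over all tested genes. The members and the gene lists below were chosen with earlier results of these data known. Their shares of called genes describe them and test no enrichment.

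**Figure D1:**
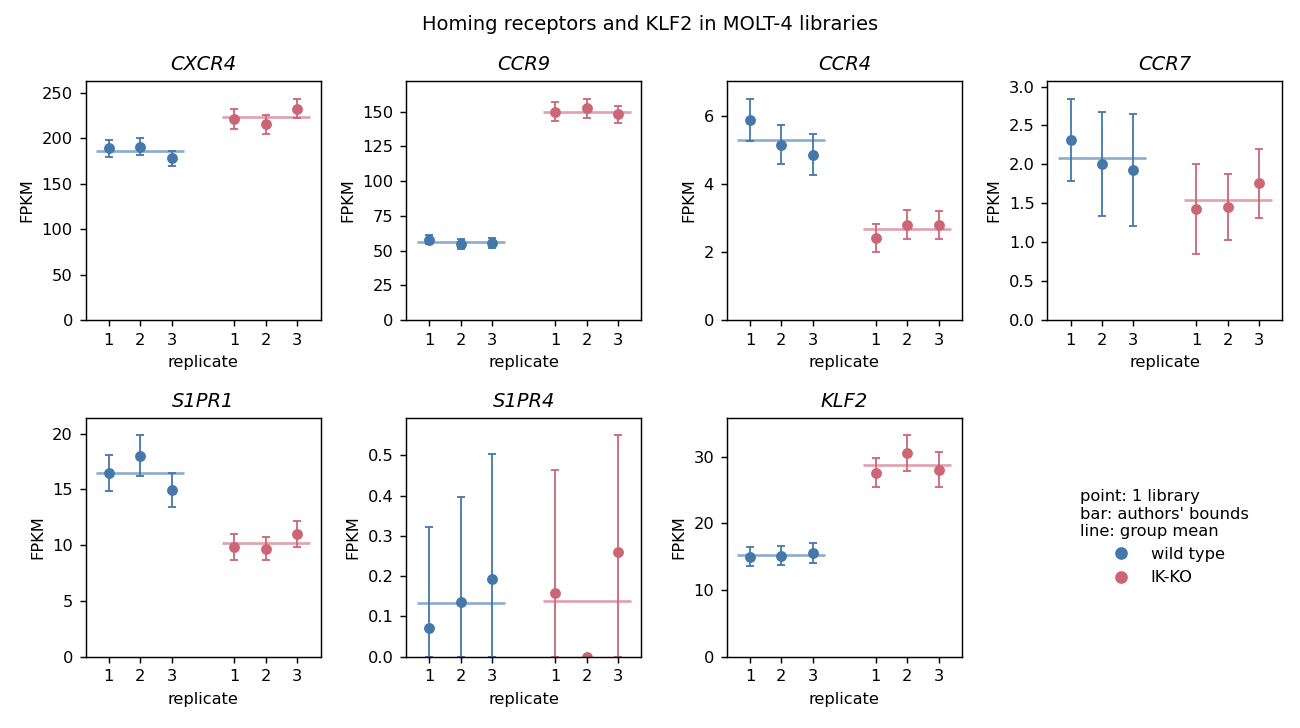
FPKM of the 7 members in each library, with the replicate number on the x axis, FPKM from 0 on the y axis, wild type in blue and IK-KO in red; bars are the confidence bounds that the authors' tables give for each library and horizontal lines are group means. CCR9 and KLF2 lie far above wild type in every library labelled IK-KO and CCR4 and S1PR1 below it, while the bounds of CCR7 and S1PR4 overlap between the groups.

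To show what stands before the start sites of the genes that moved, the bases just upstream of 4 of the members called are given from RefSeq on GRCh38.p14, each read 5′ to 3′ along the strand of its gene. These bases are the same in hg38, the build of the tables, and hold no exon annotated in GENCODE release 44. They lie before the gene starts given with the FPKM values. GENCODE release 44 has starts farther upstream for CXCR4 (chr2:136119177) and CCR9 (chr3:45884425), so both of these windows lie within the genes as annotated there. Capitals mark CACCC (or GGGTG on the other strand), the core that KLF factors bind, and GGGAA (or TTCCC), the core that IKAROS binds. The matches do not overlap each other.
CXCR4 (chr2:136118150-136118399, minus strand): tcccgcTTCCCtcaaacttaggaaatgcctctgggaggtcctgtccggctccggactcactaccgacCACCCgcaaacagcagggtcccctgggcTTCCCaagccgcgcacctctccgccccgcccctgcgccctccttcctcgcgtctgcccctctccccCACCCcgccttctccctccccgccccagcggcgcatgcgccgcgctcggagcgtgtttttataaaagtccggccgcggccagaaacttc
CCR9 (chr3:45886293-45886503, plus strand): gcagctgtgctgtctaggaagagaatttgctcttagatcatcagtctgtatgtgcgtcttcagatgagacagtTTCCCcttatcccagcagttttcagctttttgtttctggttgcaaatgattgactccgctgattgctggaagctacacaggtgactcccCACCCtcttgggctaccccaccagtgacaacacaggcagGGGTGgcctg
CCR4 (chr3:32951394-32951643, plus strand): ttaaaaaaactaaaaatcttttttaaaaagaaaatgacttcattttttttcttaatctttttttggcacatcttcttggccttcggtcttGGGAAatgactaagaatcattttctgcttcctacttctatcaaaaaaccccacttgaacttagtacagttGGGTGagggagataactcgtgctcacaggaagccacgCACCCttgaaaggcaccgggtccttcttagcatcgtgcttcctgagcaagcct
KLF2 (chr19:16324576-16324816, plus strand): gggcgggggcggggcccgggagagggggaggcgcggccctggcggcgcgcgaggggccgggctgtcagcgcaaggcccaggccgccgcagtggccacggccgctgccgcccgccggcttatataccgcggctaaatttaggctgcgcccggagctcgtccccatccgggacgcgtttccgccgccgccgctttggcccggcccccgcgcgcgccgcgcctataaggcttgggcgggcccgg

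Over the full 250 bases before the first start listed for each gene, CXCR4 had 2 CACCC and 2 GGGAA matches. CCR9 and CCR4 each had 2 CACCC matches and 1 GGGAA match. S1PR1, whose window runs largely into annotated transcript and is not printed, had 2 and 1. The GC-rich KLF2 window held neither word. Both words are common: on either strand, CACCC occurs in 53.7% and GGGAA in 58.8% of 27305 RefSeq promoter windows of 250 bases. GTAAACA (or TGTTTAC), which FOXO factors bind, was not found in any of these windows and occurs in 2.98% of all. Both words stood before genes that rose (CXCR4, CCR9) and genes that fell (CCR4, S1PR1), while KLF2, which rose, had neither. A match is a description of letters and not of a bound site, and binding was not measured in these libraries.

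In wild type cells the members spanned a wide range of levels, which FPKM allows to be compared because it is scaled for transcript length. CXCR4 was the highest, followed by CCR9, then S1PR1 and KLF2, whose libraries overlapped, then CCR4, CCR7 and S1PR4, each below the one before it in every library. In the libraries labelled IK-KO the order was CXCR4, CCR9, KLF2, S1PR1, CCR4, CCR7 and S1PR4, with no overlap between neighbours. Among 12652 tested genes, ordered from the highest mean FPKM, CCR9 moved from rank 1620 to rank 561 and KLF2 from 5376 to 3252. S1PR1 moved the other way, from 5067 to 6765, and CCR4 from 8816 to 10355. CXCR4 went from rank 442 to 386 and CCR7 from 11014 to 11474.

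CCR9, the receptor for CCL25 on chromosome 3 (chr3:45886504-45903175, ENSG00000173585.16), showed the largest change among the members. Its FPKM was 57.9, 54.6 and 55.6 in the wild type libraries, replicates 1 to 3 in order, against 149.9, 152.4 and 148.0 in the IK-KO ones. Every library labelled IK-KO lay above every wild type library, and the libraries of a group lay close together, at 56.0 ± 1.70 and 150.1 ± 2.24 (mean ± SD, n = 3 each). The change was 1.41 ± 0.05 (SE) on the log2(FPKM + 1) scale, with a limma adjusted p of 8.93e-06. Only 2.08% of all tested genes changed by more in either direction.

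CCR9 shares its locus with LZTFL1, which encodes a protein that regulates traffic to cilia and is transcribed from the opposite strand. CCR9 lies wholly within LZTFL1, and 23 of its 4376 exonic bases in GENCODE release 44 are also exonic in LZTFL1. The FPKM of LZTFL1 was 52.6, 48.8 and 40.8 in wild type and 162.7, 137.4 and 154.5 in IK-KO replicates, a change of 1.66 ± 0.10 with an adjusted p of 0.000128. The 2 genes thus rose by like amounts, and all libraries labelled IK-KO were above all wild type ones for both. Whether the quantification used strand is not given in the sources used here, so reads of one gene counted for the other cannot be told apart from a rise of both, and their part in the CCR9 value was not tested.

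The wider surroundings of CCR9 were described in a window of 500 kb, chosen after the values were seen. FYCO1, which lies 31.4 kb further along the chromosome and encodes an adaptor for vesicle transport, was also called higher, by 0.71 ± 0.13 (adjusted p = 0.0111). SACM1L, a phosphoinositide phosphatase gene at -197.4 kb from CCR9, had a change of 0.32 ± 0.09 with an adjusted p of 0.0417, a call lost without any library other than wild type replicate 1 (adjusted p between 0.0544 and 0.124) and with the median of its 20 neighbours removed (0.18, adjusted p = 0.218). The SACM1L call held in 6 of 16 alternatives. LIMD1-AS1 missed the threshold at 0.34 ± 0.10 (adjusted p = 0.0583). LIMD1 and LARS2, farther out, changed by -0.02 ± 0.11 and -0.09 ± 0.08 and were not called. CCR2, a chemokine receptor for CCL2 that lies 467.2 kb beyond CCR9, was higher by 1.57 ± 0.15. CCRL2, farther out than CCR2 and outside the window, was at -0.68 ± 0.22 and not called (adjusted p = 0.074). Over the 20 tested genes nearest to CCR9 the median change was 0.14, and with it removed the CCR9 change was 1.26.

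**Figure D2:**
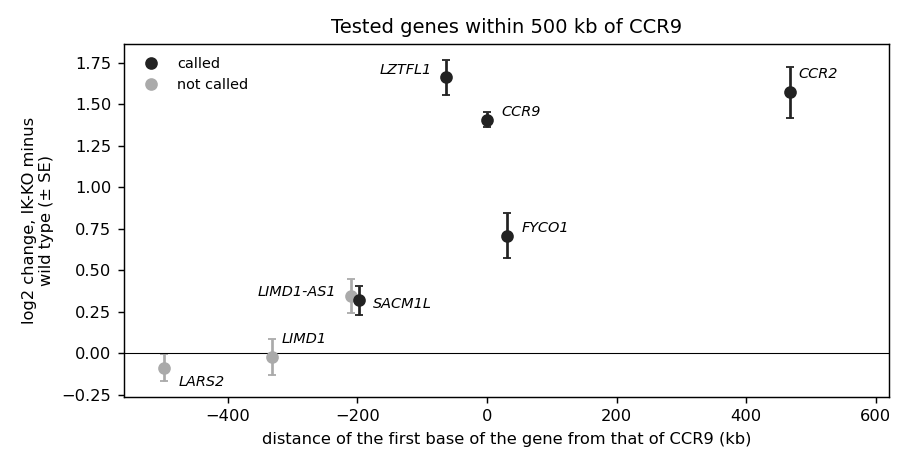
Change of each tested gene within 500 kb of CCR9, as log2(FPKM + 1) in IK-KO minus wild type (± SE) on the y axis, against the distance in kb of its first base from that of CCR9 on the x axis; black points were called and grey points were not. LZTFL1, CCR9 and CCR2 lie between 1.41 and 1.66, FYCO1 at 0.71, and the 2 genes farthest to the left near 0.

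CXCR4, the receptor for CXCL12 on chromosome 2 (chr2:136114349-136118149, ENSG00000121966.7), was the most abundant member and rose least among those called. Its FPKM was 188.8, 190.6 and 177.8 in wild type and 221.0, 215.2 and 232.7 in IK-KO replicates. All libraries labelled IK-KO were above all wild type ones, and their confidence bounds did not overlap, reaching at most 199.8 in wild type and down to 205.0 in IK-KO. The change was 0.26 ± 0.05, with a limma adjusted p of 0.0117, and 35.3% of all tested genes changed by more. The median of its 20 nearest tested genes was 0.07, and with this removed the CXCR4 change was 0.19 with an adjusted p of 0.0434.

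CCR4, the receptor for CCL17 and CCL22 that marks skin-homing and type 2 helper T cells, fell. It lies on the same chromosome as CCR9 (chr3:32951644-32956349, ENSG00000183813.7). Its FPKM was 5.87, 5.15 and 4.86 in wild type and 2.41, 2.80 and 2.79 in IK-KO replicates, so the highest library labelled IK-KO was well below the lowest wild type library. The change was -0.78 ± 0.12 on the log2(FPKM + 1) scale, which understates changes of genes with low FPKM, with a limma adjusted p of 0.00451. Its 20 nearest tested genes had a median change of 0.01.

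CCR7, the lymph node receptor on chromosome 17 (chr17:40553769-40565472, ENSG00000126353.3), was low in both lines. Its FPKM was 2.316, 2.003 and 1.923 in wild type and 1.43, 1.45 and 1.76 in IK-KO replicates. Each library labelled IK-KO was below each wild type library, but by a margin within the confidence bounds of the single libraries, whose half-width was 22.7% to 40.4% of the value. The change was -0.28 ± 0.14 with a limma adjusted p of 0.221, and it did not pass the threshold. Its 20 nearest tested genes had a median change of -0.16.

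S1PR1, the receptor on chromosome 1 (chr1:101236865-101243713, ENSG00000170989.10) that lets T cells leave lymphoid tissue toward S1P, fell. Its FPKM was 16.5, 18.0 and 14.9 in wild type and 9.87, 9.70 and 11.0 in IK-KO replicates. The groups did not overlap, and neither did the confidence bounds, which went down to 13.4 in wild type and up to 12.2 in IK-KO. The change was -0.64 ± 0.09, with a limma adjusted p of 0.00387. Its 20 nearest tested genes had a median change of -0.05. S1PR4, a related receptor found mainly on blood and immune cells (chr19:3172346-3180332, ENSG00000125910.6), was at 0.0708, 0.135 and 0.193 FPKM in wild type libraries and at 0.158, 0 and 0.259 in IK-KO replicates. The groups overlapped and the lower confidence bound of every library was 0, so a difference of S1PR4 was not detectable at this depth. An antisense RNA gene overlaps S1PR4, so even these fragments are of uncertain origin.

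KLF2, on chromosome 19 (chr19:16324817-16327874, ENSG00000127528.5), rose. Its FPKM was 14.99, 15.16 and 15.56 in wild type and 27.6, 30.5 and 28.1 in IK-KO replicates. The wild type libraries lay within a narrow band, and the lowest library labelled IK-KO was far above it. The change was 0.87 ± 0.07, with a limma adjusted p of 0.000247, and 5.82% of all tested genes changed by more. The 20 tested genes nearest to KLF2 had a median change of 0.00.

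**Figure D3:**
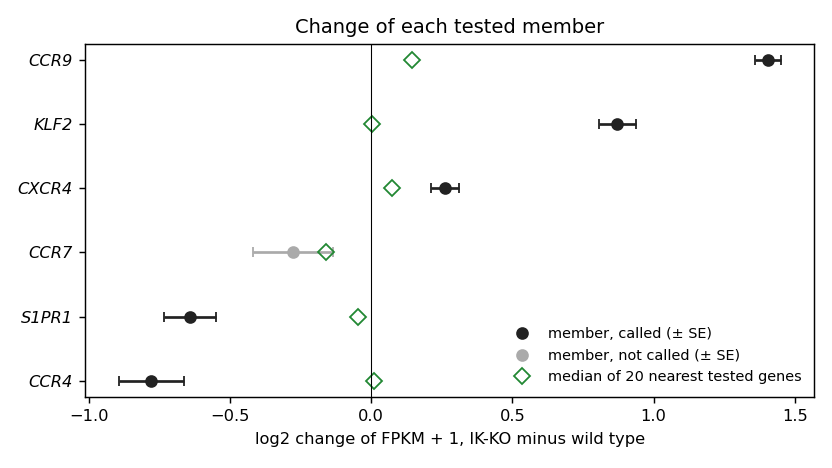
Change of each of the 6 tested members, as log2(FPKM + 1) in IK-KO minus wild type, with bars for ± SE; black points were called, the grey point was not, and green diamonds give the median change of the 20 nearest tested genes on the same chromosome. The changes run from 1.41 for CCR9 to -0.78 for CCR4, while the diamonds lie between -0.16 and 0.14.

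The balance between members within a library shifted with these changes. S1PR1 and KLF2 were at a ratio of 1.10, 1.19 and 0.960 in wild type and 0.358, 0.318 and 0.392 in IK-KO replicates. S1PR1, which KLF2 activates in mouse T cells, thus fell where KLF2 rose, and the log2 ratio changed by -1.61. The ratio of CCR9 to CXCR4 was 0.307, 0.286 and 0.313 in wild type and 0.678, 0.708 and 0.636 in IK-KO replicates, a log2 change of 1.16. The ratio of CCR9 to CCR4 went from 9.86, 10.6 and 11.4 to 62.1, 54.4 and 53.1, a log2 change of 2.41. CCR7 relative to CCR9 fell by 1.85 on the log2 scale. None of these 4 ratios overlapped between groups, and each had a two-sided exact permutation p of 0.1, the smallest that 3 against 3 libraries can give. For S1PR1 to KLF2, CCR9 to CCR4 and CCR7 to CCR9 this was set by the members, whose groups already lay apart in opposite directions.

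The other chemokine receptors were mostly silent. Of 23 receptor genes listed, 16 were under 1 FPKM in all 6 libraries and 6 were tested, 4 of which were called: the members CXCR4, CCR9 and CCR4, and CCR2. That is 66.7% of those tested, against 19.9% of all tested genes. Of the 4 members in this list 3 were called, so the share largely repeats theirs. CCR2 was at 2.10, 1.36 and 1.79 FPKM in wild type libraries and at 7.99, 7.38 and 6.09 in IK-KO replicates, 4.09 times the wild type mean (adjusted p = 0.000708). The remaining tested receptor besides CCR7 was CCRL2, an atypical receptor that binds chemerin, at -0.68 ± 0.22 with an adjusted p of 0.074. Of 42 chemokine ligand genes in the tables, 33 were at 0 in every library and 2 were tested. CCL28, a ligand of mucosal tissue, was called lower at -0.61 ± 0.16 (adjusted p = 0.0342). That call was lost when any library other than wild type replicate 3 was left out, with adjusted p between 0.0631 and 0.0858. The CCL28 call held in 8 of 15 alternatives. CXCL3, the other tested ligand, was not called (adjusted p = 0.626). The ligands of CCR4 and CCR7 (CCL17, CCL22, CCL19 and CCL21) were listed at 0 in all libraries.

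**Figure D4:**
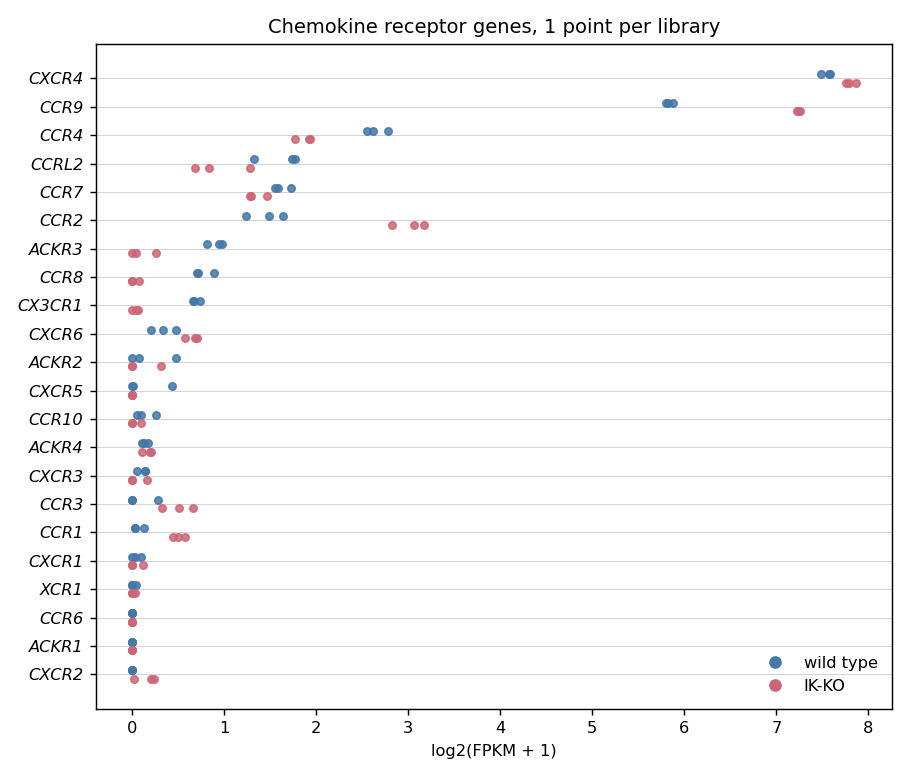
Level of the chemokine receptor genes as log2(FPKM + 1) on the x axis, 1 point per library, wild type in blue and IK-KO in red, ordered by the wild type level. CXCR4 and CCR9 stand far to the right of the other receptors in both lines, and most genes lie near 0.

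Of 20 genes that make, break down or sense S1P, 11 were tested, and S1PR1 was the only gene called. That is 9.09% of those tested, against 19.9% of all tested genes. PLPP1, a lipid phosphatase, came closest to the threshold at 0.50 ± 0.15 (adjusted p = 0.0582), with groups that did not overlap, and SGPP1, an S1P phosphatase, was at -0.21 ± 0.09 (adjusted p = 0.136), also without overlap. S1PR3, which couples to several G proteins, had a change of -0.17 ± 0.11 (adjusted p = 0.34), and S1PR5, known from natural killer cells, -0.17 ± 0.16 (adjusted p = 0.524). The kinases that make S1P were at 0.23 ± 0.16 for SPHK1 and -0.06 ± 0.11 for SPHK2, and the lyase SGPL1, which breaks it down, at -0.04 ± 0.14, none of them called. The median change over the 11 tested genes was -0.06.

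Among 17 KLF genes 9 were tested, and KLF2 and KLF3 were called, both higher. That is 22.2% of those tested, close to the 19.9% of all tested genes. KLF3 is a repressor that in other cells binds many of the same CACCC sequences. It was at 5.19, 3.75 and 3.29 FPKM in wild type libraries and at 7.34, 6.93 and 7.33 in IK-KO replicates, a change of 0.71 ± 0.15 (adjusted p = 0.0157). The KLF3 call was lost without wild type replicate 2 (adjusted p = 0.0586), and likewise without replicate 1 (0.0551) or replicate 3 (0.0547) of IK-KO, or with no filter on low values (0.059).

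Of 24 genes known to act on KLF2 in T or endothelial cells, 21 were tested and 4 called, 3 higher and 1 lower, which is close to the 19.9% called over all tested genes. MAPK7 encodes ERK5, the kinase that activates KLF2 transcription through MEF2 factors. Its FPKM was 14.1, 13.2 and 12.9 in wild type and 24.6, 23.3 and 23.3 in IK-KO replicates, a change of 0.78 ± 0.07 (adjusted p = 0.000453). The span of MAPK7 (to chr17:19383544) overlaps that of MFAP4 (from chr17:19383442), which changed by 1.43 ± 0.05. As for CCR9, reads of one gene counted for the other cannot be told apart from a rise of both, and this was not tested. FOXO4 and FOXO3 are forkhead factors of the family that drives KLF2 in T cells. FOXO4 was higher by 0.73 ± 0.16 (adjusted p = 0.02), a call lost without wild type replicate 1 (adjusted p = 0.0557), and likewise without replicate 1 (0.0706) or replicate 2 (0.0735) of IK-KO. With the median of its 20 neighbours (0.24) removed (0.48, adjusted p = 0.0858), or with no filter on low values (adjusted p = 0.0753), it was not called either. FOXO3 was higher by 0.46 ± 0.08 (adjusted p = 0.00935). The median of its 20 neighbours on chromosome 6 was 0.26, and with that removed its change was 0.21 and was not called (adjusted p = 0.152). CCM2, part of a complex that restrains the kinase cascade above ERK5, was lower, at -0.26 ± 0.05 (adjusted p = 0.0124). FOXO1, the best known activator of KLF2 in T cells, had a mean of 0.0758 FPKM in wild type and 0.0577 in IK-KO libraries and was not tested.

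Of 12 T-cell trafficking genes tied to KLF2 or FOXO1, 10 were tested and 3 called, with S1PR1 and ITGB7 lower and KLF3 higher. That is 30% of those tested, against 19.9% of all tested genes. The list holds 3 members, of which S1PR1 was called. ITGB7 encodes the beta chain of the gut-homing integrin. Its FPKM was 2.23, 1.58 and 1.49 in wild type and 0.673, 0.321 and 0.577 in IK-KO replicates, a change of -0.86 ± 0.19 (adjusted p = 0.0198). The call was lost without wild type replicate 1 (adjusted p = 0.0508) or IK-KO replicate 2 (0.0555). CD69, which removes S1PR1 protein from the cell surface, had a change of 0.16 ± 0.07 and was not called (adjusted p = 0.176).

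Among 31 other homing and egress receptors and their glycan enzymes, 21 were tested and 9 called, 2 higher and 7 lower, or 42.9% of those tested against the 19.9% of all tested genes. GPR183, the receptor for oxysterols that positions lymphocytes within lymphoid tissue, was at 3.39, 3.38 and 3.66 FPKM in wild type libraries and at 24.7, 27.2 and 28.0 in IK-KO replicates, 7.66 times the wild type mean (log2 change 2.62 ± 0.08, adjusted p = 7.79e-06). LPAR6, a lysophosphatidic acid receptor, fell from 24.1, 21.1 and 24.8 to 5.66, 3.85 and 5.34 (-2.04 ± 0.14, adjusted p = 0.000155). ADGRE5, the adhesion receptor CD97, fell from 5.32, 3.72 and 6.14 to 1.27, 1.11 and 1.13 (-1.46 ± 0.18, adjusted p = 0.00182). For each of these 3 genes the groups were far apart. PTGER4 and CD44, named after their values were seen, were called at 1.25 ± 0.14 and -0.93 ± 0.09. The median change over the 21 tested genes was -0.16.

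Genes for the proteins that carry the signal of these receptors were mostly lower in RNA where they were called. Of 42 genes for G proteins, receptor kinases, arrestins, RGS proteins and downstream effectors, 36 were tested and 13 called, 2 higher and 11 lower, or 36.1% of those tested against 19.9% of all tested genes. The calls of ARRB2, GNAQ, GNB1, GNB4, GNB5, GNG10 and RHOH were lost when some library was left out. GNB1 and GNB4 were the 2 higher genes. PIK3R5 and PIK3CG encode the p101 regulatory and the catalytic subunit of the PI3K gamma complex that acts below G protein-coupled receptors. PIK3R5 fell from 4.04, 3.36 and 3.05 FPKM to 0.259, 0.154 and 0.129, by -1.92 ± 0.16 (adjusted p = 0.000413). PIK3CG fell from 25.4, 23.5 and 20.2 to 11.21, 12.20 and 14.03, by -0.84 ± 0.11 (adjusted p = 0.00286). RGS12, which speeds the shutdown of inhibitory G proteins, fell from 6.76, 6.80 and 5.67 to 1.40, 1.66 and 1.83, by -1.49 ± 0.13 (adjusted p = 0.000432). GNAI2, the inhibitory alpha subunit that couples most chemokine receptors, was at 163.9 ± 5.96 in wild type and 156.3 ± 6.55 in IK-KO libraries (mean ± SD, n = 3 each) and was not called.

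Over all 8 pathway lists, 104 genes beside the members were tested and 30 were called, 9 higher and 21 lower. Of all tested genes 19.9% were called, 10.1% higher and 9.75% lower. The median size of change over the 104 pathway genes, 0.21, was close to the 0.18 over all tested genes. Without wild type replicate 1, 19 were called. Among the 21 lower genes, GCNT1, SEMA4D, GNAQ and GNG10 lie on chromosome 9, where the 20 tested genes nearest to each had median changes from -0.51 to -0.32. With that median removed none of these 4 was called (adjusted p between 0.193 and 0.45).

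**Figure D5:**
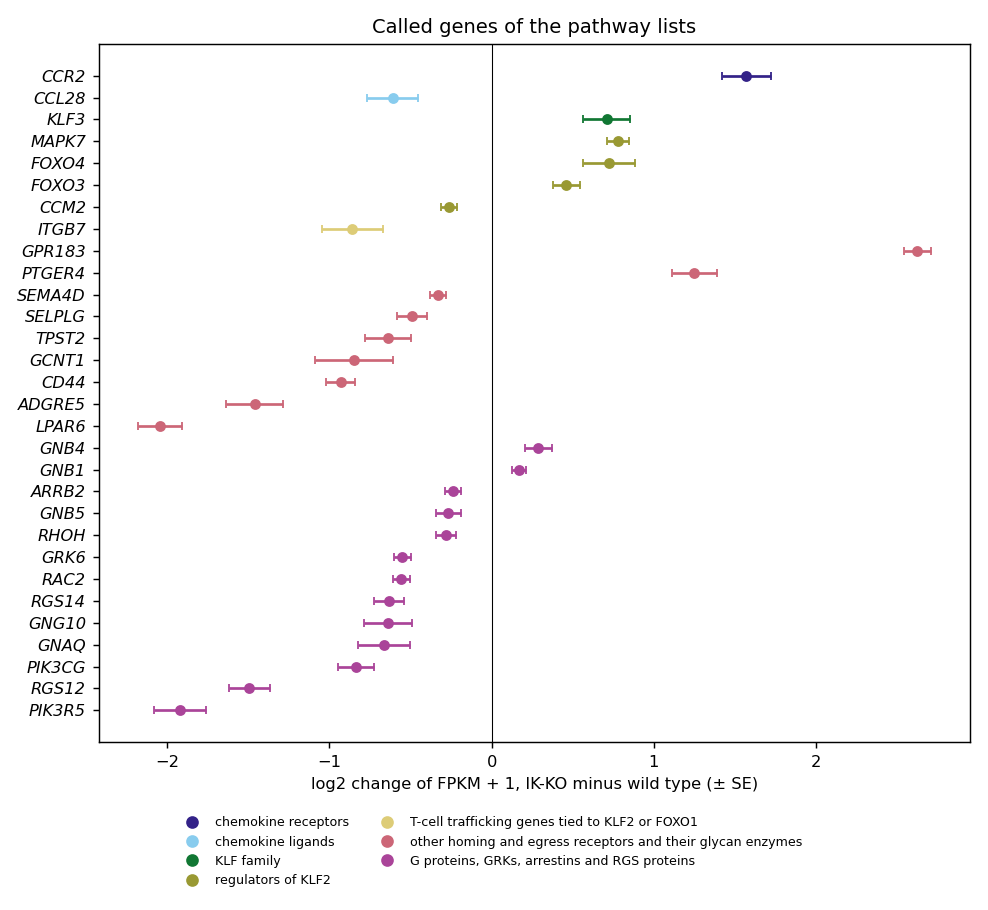
Change of the 30 called pathway genes beside the members, as log2(FPKM + 1) in IK-KO minus wild type, with bars for ± SE and colours for the lists. Points run from 2.62 for GPR183 to -2.04 for LPAR6, and most genes of the G protein list lie to the left of 0.

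The genes whose pattern over the 6 libraries lay closest to that of a member were sought among all tested genes, by the mean absolute difference of log2(FPKM + 1) after centring each gene on its own mean. CCR9 lay closest to MFAP4 (0.0544) and ACTN1 (0.0611), and KLF2 to DDAH2 (0.0307) and SESN2 (0.0333). CXCR4 lay closest to MAP1LC3B (0.0117) and GPBP1 (0.0145), CCR7 to AC069281.2 (0.0247) and KIAA0100 (0.0251), CCR4 to UBE2FP3 (0.0308) and MX1 (0.0364), and S1PR1 to ZDHHC2 (0.0344) and SCAI (0.0443). These distances follow the difference between the lines and the size of the change.

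IKZF1, the targeted gene, had more RNA in the libraries labelled IK-KO, with 206.7, 259.6 and 207.4 FPKM against 134.2, 124.0 and 104.5 in wild type (0.89 ± 0.12, adjusted p = 0.00295), so its RNA does not check the labels. The study's methods state that the knockout was checked by PCR and western blot. Between 21254 and 21887 rows were above 0 per library, and mitochondrial genes took 12.96% to 14.43% of the summed FPKM. All 15 T-lineage markers were tested, and 12 were called, 5 higher and 7 lower, or 80% against 19.9% of all tested genes. CD3D, CD3E and LCK exceeded 200 FPKM in every library. The largest changes were those of CD2, an adhesion receptor, at 58.9, 62.0 and 63.7 FPKM in wild type libraries against 5.04, 5.38 and 4.98 in IK-KO (-3.35 ± 0.07, adjusted p = 1.41e-06), CD247, the zeta chain of the T-cell receptor complex (1.88 ± 0.06, adjusted p = 7.79e-06), and CD7 (-1.72 ± 0.14, adjusted p = 0.000412). The summed level of 7 B-lineage markers was 4.01 to 5.99 in wild type and 1.43 to 1.76 in IK-KO libraries. The only one tested and called was CR2, which was at 2.41, 2.23 and 2.16 FPKM in wild type and listed at 0, 0.0123 and 0.0347 in IK-KO libraries. The summed level of 7 endothelial markers was 20.6 to 23.6 and 19.8 to 26.0, from PECAM1 and FLT1, with 4 of the 7 at 0, and those of the myeloid, stromal and erythroid lists were under 1 in every library. In bulk RNA, fewer cells carrying a transcript and less of it per cell cannot be told apart for any gene named here.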

How the data were processed

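RNA-seq of polyA RNA was performed on 3 wild type and 3 IK-KO MOLT-4 libraries, made with the NEBNext Ultra II RNA kit. The deposited tables give FPKM per gene with confidence bounds. Length of transcript and library depth were accounted for by the authors in the FPKM values, and the submitters' processing notes name hg38, STAR 2.6.1c, Cufflinks 2.2.1 and HOMER 4.10 without saying which step each served. The strand setting is not given in the sources used here, and no counts are given. The bounds served as the measure of precision, and their half-width was 4.36% to 6.62% of the value for CCR9 and 22.7% to 40.4% for CCR7.

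Rows of 1 identifier were summed, and 29 genes without a complete estimate were left out. Coordinates were written on GRCh38 counted from 1, and 49771 of 49784 identifiers shared with GENCODE release 44 lie at its position. The groups were compared with limma 3.58.1 (R 4.3.3) on log2(FPKM + 1) (trend eBayes, two-sided, adjusted after Benjamini-Hochberg) over the 12652 genes whose mean FPKM reached 1. The fit was tested on simulated data. An unadjusted p under 0.05 was found for 4227 genes. Ratios of FPKM were compared with an exact permutation test. RefSeq promoters were matched by symbol.

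All members and IKZF1 were named whatever their values, with up to 3 called genes of the largest change per list (marker lists included), every called gene of lists with 3 or fewer calls, and 2 nearest patterns per member. Other genes named, including those of the CCR9 window, were chosen after their values were seen. The members and lists were chosen with earlier results of these data known. Alternatives were other pseudocounts, filters and scalings, a replicate block and leaving out each library. Some listed genes are counted but not reported here.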

Additional observations from a re-analysis of the deposited data

How the results depend on the processing

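The direction and call of CXCR4, CCR9, CCR4, S1PR1 and KLF2 were kept under every alternative in which they were tested. Their log2 changes ranged from 0.19 to 0.29 for CXCR4, 1.26 to 1.43 for CCR9, -0.96 to -0.71 for CCR4, -0.71 to -0.58 for S1PR1 and 0.83 to 0.91 for KLF2. CXCR4 came nearest to the threshold, with adjusted p between 0.00805 and 0.0497. CCR7 was not called under any, at -0.41 to -0.12 with adjusted p between 0.0801 and 0.616. With a filter of mean FPKM of at least 5, CCR4 and CCR7 were not tested and the other 4 members were called. Leaving out single libraries gave 1692 to 2004 called genes against 2515, and 19 to 24 called pathway genes against 30. The lowest value, 19, came without wild type replicate 1. Of the 30 calls, 15 held under every alternative and 13 were lost when some library was left out. With the median of the 20 nearest genes removed, SEMA4D turned from -0.33 to 0.0711 and was no longer called (adjusted p = 0.39). The cause was not tested. Deviations of libraries sharing a replicate number had small correlations of 0.067, 0.025 and 0.005. Libraries of unlike number were not compared, so these values do not settle whether the numbers pair libraries. With the replicate block 1805 genes, 21 pathway genes and 5 members were called, and CXCR4 stayed at 0.26 (adjusted p = 0.0497). The tables give no counts, so depth limits are known only through the confidence bounds, which reach 0 for S1PR4.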

Other observations

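Several chemokine receptors below the filter of 1 FPKM also differed between the lines. These values were looked at after the data were seen, and their adjusted p is that of the limma fit over every gene above 0 in at least 1 library. CCR1, a receptor for inflammatory chemokines from the cluster of CCR9 and CCR2 on chromosome 3, was at 0.0953, 0.0181 and 0.0207 FPKM in wild type libraries and at 0.361, 0.411 and 0.492 in IK-KO replicates (adjusted p = 0.0119). CCR3 and CXCR6, also there, had groups that did not overlap but were not called (adjusted p = 0.142 and 0.112). Not every receptor of this cluster rose. XCR1 was barely detected, with overlapping groups. CCRL2, which is above the filter, was lower without overlap but not called (-0.68, adjusted p = 0.176). CX3CR1 and CCR8, elsewhere on the same chromosome arm, were lower. CX3CR1, the fractalkine receptor, was at 0.574, 0.666 and 0.589 in wild type and was listed at 0, 0.0469 and 0.0294 in IK-KO replicates (adjusted p = 0.00264). CCR8, a receptor of skin and regulatory T cells, was at 0.642, 0.846 and 0.630 in wild type and was listed at 0, 0 and 0.0521 in IK-KO replicates (adjusted p = 0.00534). ACKR3, an atypical receptor that takes up CXCL12, was lower too, with an adjusted p of 0.0111.

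The ligands of CCR9 and CXCR4, which rose, were low. CCL25, the ligand of CCR9, had listed FPKM values of 0, 0 and 0.0749 in wild type libraries and 0.764, 0.732 and 0.517 in those labelled IK-KO (adjusted p = 0.0094). CXCL12, the ligand of CXCR4, was at a mean of 0.419 and 0.627 with overlapping groups (adjusted p = 0.321).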
